A study of Mus musculus with 2 samples.

Results

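The regulatory T cells described here are 149 cell barcodes, 73 of 10861 kept in the beta-elemene library and 76 of 10803 kept in the vehicle library, chosen by the UMIs (unique molecular counts) of a few genes in each barcode. A barcode had to hold at least 1 UMI of the T cell receptor genes Cd3d, Cd3e, Cd3g and Trbc2 together and none of Cd8a or Cd8b1. It could hold at most 2 UMIs of C1qa, C1qb and C1qc together and fewer than 2 of the division genes Mki67 and Top2a. Last, it needed either 1 or more UMIs of Foxp3, called the Foxp3 route below, or 1 or more of both Ikzf2 and Il2ra, called the Ikzf2/Il2ra route where Foxp3 was absent. The study grew 4T1 tumours, from a mouse triple-negative breast cancer cell line, in the mammary fat pad. The beta-elemene library came from tumours of mice injected intraperitoneally each day with beta-elemene, a plant sesquiterpene, at 30 mg/kg for 18 days. The vehicle library came from mice given normal saline over the same 18 days. Each group was 1 droplet library, and the number of mice behind each is not given in the sources used here. Differences between the libraries therefore have no replicate check, and intervals on shares and ratios cover counting error only.

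Regulatory T cells are CD4 T cells that restrain other immune cells, and the transcription factor Foxp3 fixes and maintains their identity. Ikzf2 encodes Helios, a zinc finger factor of many regulatory T cells, and Il2ra encodes the high-affinity chain of the interleukin 2 receptor, which activated T cells of other kinds and some innate-like T cells also carry. In tumours such cells commonly carry costimulatory receptors of the TNF receptor family and the inhibitory receptor Ctla4. They can free active TGF-beta from its latent form with the integrin that pairs the Itgav and Itgb8 chains.

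Foxp3 was detected in 22 members in beta-elemene and 38 in vehicle. The other 51 beta-elemene and 38 vehicle members held Ikzf2 and Il2ra without Foxp3. Of the Foxp3 route, 18 beta-elemene and 29 vehicle members also held both genes of the pair. Detection stood close to the threshold, since 11 beta-elemene and 20 vehicle members had exactly 1 Foxp3 UMI and the most in any member was 5 in beta-elemene and 7 in vehicle. Members of the Ikzf2/Il2ra route held a median of 4 Ikzf2 and 3 Il2ra UMIs in either library, and 3 in each had both genes at 1 UMI. Just outside the rule lay 109 beta-elemene and 129 vehicle barcodes with Ikzf2 alone, and 31 and 45 with Il2ra alone. These counts describe the choice of members and support nothing else.

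**Figure D1:**
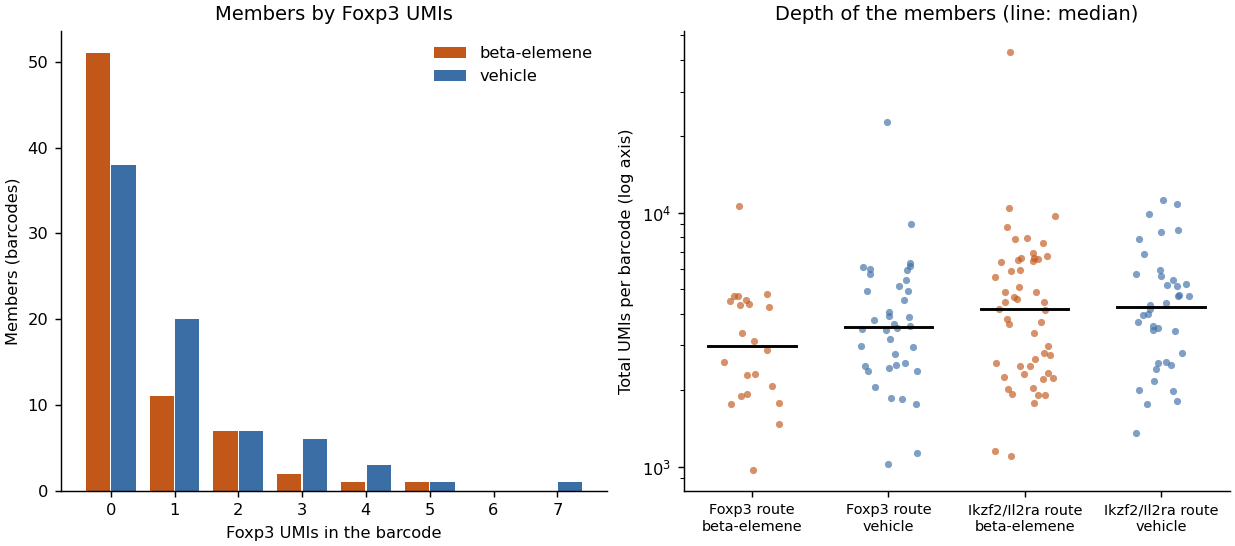
Left, members of each library (vertical axis, barcodes) by the number of Foxp3 UMIs they held, beta-elemene left of vehicle; the bars at 0 UMIs, 51 in beta-elemene and 38 in vehicle, are the Ikzf2/Il2ra route. Right, total UMIs of each member on a log axis by route and library, 1 point per barcode, with the median as a line; 1 beta-elemene member of the Ikzf2/Il2ra route stands above all others at 42895 UMIs.

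Members had a median of 3813 UMIs in beta-elemene and 3816.5 in vehicle, with 971 to 42895 in beta-elemene and 1027 to 22668 in vehicle, and 340570 and 341145 UMIs in all. The deepest barcode held 12.6% of the UMIs of the beta-elemene members and 6.64% of those of the vehicle members. In the Foxp3 route the median was 2996.5 UMIs in beta-elemene and 3554 in vehicle. A doublet caller marked 3 beta-elemene members and no vehicle member. The libraries shared 37 barcodes, of which none was a beta-elemene member and 2 were vehicle members. In the beta-elemene library 18 members, and in the vehicle library 16, held 5 or more UMIs from a marker list of another cell type. The lists covered macrophages, neutrophils, fibroblasts, malignant cells, gamma delta T cells and others. On the gamma delta T cell list, 6 beta-elemene members and 1 vehicle member reached 5 UMIs, all of the Ikzf2/Il2ra route. Removal of barcodes holding RNA of other cells therefore also took out these members, unevenly between the libraries. The neutrophil list summed to 1168 UMIs in beta-elemene members, 756 of them in 1 barcode, against 85 in vehicle members. The macrophage list summed to 273 UMIs in beta-elemene members and 205 in vehicle members, with Adgre1 at 0 in beta-elemene. The fibroblast list summed to 51 UMIs in beta-elemene members and 215 in vehicle members, with 117 of the vehicle UMIs in 1 barcode. The malignant list summed to 204 UMIs in beta-elemene members, 138 of them in 1 barcode, and 95 in vehicle members. Results below are given again without these barcodes where that changes them, and their part in the other results was not tested.

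Of the 5 markers of the label, Foxp3, Ikzf2 and Il2ra are the rule itself, so only Itgb8 and Tnfrsf4 check it. Tnfrsf4 was detected in 16 of 22 beta-elemene and 32 of 38 vehicle members of the Foxp3 route, in 34 of 51 and 19 of 38 members of the Ikzf2/Il2ra route, and in 50 of 75 and 38 of 64 conventional CD4 T cells, which are defined below. Itgb8 was detected in 4 of 22 beta-elemene and 10 of 38 vehicle members of the Foxp3 route, in 14 of 51 and 4 of 38 members of the Ikzf2/Il2ra route, and in 0 of 75 and 1 of 64 conventional cells. At least 1 of Itgb8, Tnfrsf4, Ctla4, Izumo1r and Klrg1 was detected in 22 of 22 beta-elemene and 36 of 38 vehicle members of the Foxp3 route. In the Ikzf2/Il2ra route the same held for 44 of 51 beta-elemene and 30 of 38 vehicle members. Cd4 itself was seen in 24 of 73 beta-elemene and 21 of 76 vehicle members.

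The Ikzf2/Il2ra route also held genes that go against the label. Trdc and Tcrg-C1 encode constant parts of the gamma delta T cell receptor, and Cd163l1 marks gamma delta T cells that make interleukin 17 in mice. At least 1 of the 3 was detected in 1 of 22 beta-elemene and 0 of 38 vehicle members of the Foxp3 route, against 12 of 51 beta-elemene and 6 of 38 vehicle members of the Ikzf2/Il2ra route. Trdc had 2 UMIs in beta-elemene and 0 in vehicle in the Foxp3 route, against 35 in beta-elemene and 12 in vehicle in the Ikzf2/Il2ra route. Cd163l1 had 39 UMIs in the beta-elemene Ikzf2/Il2ra route and 0 in vehicle. Il17a, the interleukin 17 gene, had 16 UMIs in 1 beta-elemene barcode and 20 UMIs in 3 vehicle barcodes, all in the Ikzf2/Il2ra route. The Ikzf2/Il2ra route is therefore called by its rule in what follows, and members means both routes together.

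Among T cell barcodes without Cd8 that met every other part of the rule, 3.47% of the beta-elemene and 5.78% of the vehicle ones held Foxp3, at median depths of 5875.5 and 6977 UMIs. Over all kept barcodes, 49 in beta-elemene and 67 in vehicle held Foxp3, and 22 and 38 of these were members. The rest held no Cd3 gene or Trbc2 (14 and 16), held Cd8 (2 and 3), had over 2 C1q UMIs (7 and 2) or were dividing (4 and 8). By share, Foxp3 was rarer in the other kinds of barcode examined. It was detected in 0.126% of neutrophil barcodes (2 of 1583) in beta-elemene and in 0 of 991 in vehicle, a count that allows a share of up to 0.303% at a floor of 3 counts and 0.372% by the exact interval. Macrophages held it in 0.246% of beta-elemene and 0.110% of vehicle barcodes, although they had median depths of 12366 and 13694 UMIs, and malignant cells in 0.172% and 0.177%. CD8 T cells held it in 0.952% of beta-elemene barcodes (2 of 210, exact interval 0.116% to 3.40%) and 1.55% of vehicle barcodes (3 of 194, 0.320% to 4.45%). These intervals overlap those of the T cell barcodes without Cd8, 2.19% to 5.21% in beta-elemene and 4.12% to 7.84% in vehicle. The pair of Ikzf2 and Il2ra was also found in CD8 T cells: 10.9% of T cell barcodes without Cd8 in beta-elemene and 10.2% in vehicle held both, beside 10.5% of CD8 T cell barcodes in beta-elemene and 11.9% in vehicle, at median depths of 5142.5 and 4672 UMIs.

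Members by the whole rule made up 0.672% of kept barcodes in beta-elemene (95% exact Clopper-Pearson interval 0.527% to 0.844%) and 0.704% in vehicle (0.555% to 0.880%). The ratio of beta-elemene over vehicle was 0.955 (0.683 to 1.34). Among T cell barcodes without Cd8 the shares were 11.5% of 634 in beta-elemene and 11.6% of 658 in vehicle, a ratio of 0.997 (0.713 to 1.39). No difference in the share was detectable at this depth.

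The shares were also taken by route, which rests on the Foxp3 UMIs described above. Foxp3-route members were 0.203% of kept barcodes in beta-elemene (0.127% to 0.307%) and 0.352% in vehicle (0.249% to 0.482%), a ratio of 0.576 (0.324 to 0.999). Of the T cell barcodes without Cd8 they were 3.47% and 5.78%, a ratio of 0.601 whose interval, 0.339 to 1.04, included 1. The Ikzf2/Il2ra route was 0.470% of kept barcodes in beta-elemene and 0.352% in vehicle, a ratio of 1.33 (0.860 to 2.09). Foxp3 was thus detected in 30.1% of beta-elemene members (19.9% to 42.0%) and 50% of vehicle members (38.3% to 61.7%). With every barcode thinned to 1000 UMIs, which left out 456 beta-elemene and 416 vehicle barcodes, the Foxp3 route was 7 of 10405 barcodes in beta-elemene and 18 of 10387 in vehicle, a ratio of 0.388 (0.137 to 0.974). The Ikzf2/Il2ra route was then 21 and 27 barcodes, a ratio of 0.776 (0.417 to 1.43), and all members together gave 0.621 (0.373 to 1.02). Of thinned T cell barcodes without Cd8, members were 28 of 473 in beta-elemene and 45 of 436 in vehicle. That ratio was 0.574, with an interval of 0.345 to 0.940 that left out 1. Every part of the rule was applied again to the thinned counts of a single random draw. The limits on Cd8, C1q and division genes are easier to meet there. The thinned sets can therefore include barcodes that the full counts exclude, and their intervals do not cover the spread between draws. For comparison, conventional CD4 T cells, defined below, were 0.691% of kept barcodes in beta-elemene and 0.592% in vehicle, a ratio of 1.17 (0.824 to 1.65). Dividing barcodes that met the last part of the rule, which are not members, numbered 9 in beta-elemene and 14 in vehicle.

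Levels are given as CPM, the UMIs of a gene per 1000000 UMIs summed over the cells named. Such levels are not corrected for gene length, but the assay counts 3' ends. Foxp3 was at 532 CPM in beta-elemene and 467 CPM in vehicle within the Foxp3 route, and the sum over all members was 117.5 CPM in beta-elemene and 222.8 CPM in vehicle. Ikzf2 was at 2140 CPM in beta-elemene and 2288 CPM in vehicle in the Foxp3 route, and at 1142 and 1288 CPM in the Ikzf2/Il2ra route. Il2ra was at 1077 and 1125 CPM in the Foxp3 route, and at 844 and 980 CPM in the Ikzf2/Il2ra route. All of these levels follow from the rule.

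Members were set against conventional CD4 T cells, barcodes that met every part of the rule except the last and held Cd4, of which there were 75 in beta-elemene and 64 in vehicle. Counts were summed per library and kind of cell and fitted with edgeR's quasi-likelihood test, with the library as a term, so each comparison rests on 2 libraries that also differ in treatment. The test's p-values rest on how far the difference between the kinds of cell varied between these 2 libraries, with that variation largely borrowed across genes. They do not measure the spread between mice within a treatment. Of 4967 genes, 74 were higher in the members, or 1.49%, and 66 were lower, or 1.33%, at a Benjamini-Hochberg adjusted p below 0.05. Genes the gates used were not counted. The conventional gate held RNA of stromal cells: the fibroblast marker list summed to 51 UMIs in beta-elemene members against 957 in conventional cells, 899 of them in 1 barcode. In vehicle it summed to 215 UMIs in members against 1327 in conventional cells, 1214 of them in 1 barcode. Most of the 15 most lowered genes are fibroblast genes, such as Dcn, Sfrp2, Clec3b and Dpt, and all 5 fibroblast markers tested and 4 of 5 malignant epithelial markers were lower in the members. With barcodes holding 5 or more UMIs of other cell types removed from either side, 115 of 3349 genes were higher (3.43%) and 81 lower (2.42%).

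Both chains of the TGF-beta-activating integrin were higher in the members. Itgav, which encodes the alpha v chain, had 262 UMIs in beta-elemene members (769 CPM) against 52 in beta-elemene conventional cells (140 CPM), and 316 in vehicle members (926 CPM) against 62 in vehicle conventional cells (180 CPM). The members were higher in both libraries, with a log2 fold change of 2.32 (SE 0.219, edgeR adjusted p = 4.22e-05). Itgb8, the beta 8 chain and a marker of the label, had 44 UMIs in beta-elemene members against 0 in conventional cells, and 41 in vehicle members against 1. Summed over the libraries this was 85 UMIs against 1, a CPM ratio of 89.2 with a counting interval of 15.6 to 3566 (edgeR adjusted p = 0.000131). Itgae, the CD103 chain that binds E-cadherin and is induced by TGF-beta, had 112 CPM in beta-elemene members against 21.5 CPM in conventional cells, and 114 CPM in vehicle members against 17.5 CPM. Its log2 fold change was 2.42 (SE 0.384, adjusted p = 0.00285). These 3 were the members of a list of 14 TGF-beta genes that rose, of 13 tested, and none fell; the list's median log2 fold change was 0.36, beside -0.015 for all genes tested. Tgfb1 itself was at 273 CPM in beta-elemene members against 177 CPM in conventional cells, and at 229 CPM in vehicle members against 175 CPM, and did not pass the test.

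3 promoters are shown, since Foxp3 sets the Foxp3 route and Itgav and Itgb8 encode the 2 chains of 1 integrin that were higher together. Each run is the 300 bases around the RefSeq start on GRCm38.p6, most of them before it, read 5′ to 3′ on the strand of the gene.
Foxp3, chrX:7579426-7579725, plus strand: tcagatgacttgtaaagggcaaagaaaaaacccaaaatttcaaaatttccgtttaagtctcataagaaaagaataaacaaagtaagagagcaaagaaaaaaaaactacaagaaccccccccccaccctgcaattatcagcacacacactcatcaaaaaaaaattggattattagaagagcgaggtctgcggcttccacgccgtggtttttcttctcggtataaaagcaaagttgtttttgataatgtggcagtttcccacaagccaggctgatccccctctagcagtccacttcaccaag
Itgav, chr2:83724147-83724446, plus strand: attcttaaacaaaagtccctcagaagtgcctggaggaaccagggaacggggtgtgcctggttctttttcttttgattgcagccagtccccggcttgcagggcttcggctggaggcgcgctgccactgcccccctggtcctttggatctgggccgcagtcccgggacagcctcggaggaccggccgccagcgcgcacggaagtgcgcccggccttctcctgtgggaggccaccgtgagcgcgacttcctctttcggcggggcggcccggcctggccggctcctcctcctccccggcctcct
Itgb8, chr12:119238227-119238526, minus strand: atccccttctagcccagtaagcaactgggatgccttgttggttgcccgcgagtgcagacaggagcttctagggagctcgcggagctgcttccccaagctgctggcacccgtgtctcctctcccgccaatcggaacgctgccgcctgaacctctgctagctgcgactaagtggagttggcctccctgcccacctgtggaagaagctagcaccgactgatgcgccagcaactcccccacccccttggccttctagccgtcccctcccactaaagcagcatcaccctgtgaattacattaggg
The forkhead letters TGTTTAC and the AP-1 letters TGANTCA were searched on both strands. None of the 3 promoters held either, beside 3.65% and 7.81% of 32851 RefSeq promoters of the same length. G and C made up 40.7% of the Foxp3 window, 67.3% of the Itgav window and 60.7% of the Itgb8 window. In GENCODE vM21 on GRCm38, Foxp3 spans bases 7573644 to 7595245 of chromosome X, Itgav bases 83724397 to 83806916 of chromosome 2 and Itgb8 bases 119158022 to 119238802 of chromosome 12.

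Of a list of 19 regulatory T cell identity genes, 17 were tested, 6 rose and none fell, with a median log2 fold change of 0.87. Beside Itgb8 and Itgae these were Cd83, Izumo1r, Tnfrsf9 and Swap70. Izumo1r, the folate receptor 4 of mouse regulatory T cells, was at 112 CPM in beta-elemene members against 16.1 CPM in conventional cells and at 85 CPM in vehicle members against 29.1 CPM (log2 fold change 2.02, SE 0.416, adjusted p = 0.0165). Tnfrsf9, the costimulatory receptor 4-1BB, was at 945 CPM in beta-elemene members against 473 CPM, and at 1079 CPM in vehicle members against 553 CPM (log2 fold change 0.89, SE 0.190, adjusted p = 0.0203). Tnfrsf4, the costimulatory receptor OX40 and the other label marker outside the rule, was at 567 CPM in beta-elemene members against 315 CPM, and at 534 CPM in vehicle members against 271 CPM. It was higher in both libraries but missed the threshold (adjusted p = 0.0603), as did Ctla4 (log2 fold change 0.87, adjusted p = 0.0878) and the GITR gene Tnfrsf18 (0.59, adjusted p = 0.207). Among 18 TNF receptor and NF-kB genes tested, Tnfrsf9, Traf1, Rel and Cd27 rose and none fell. The 18 had a median log2 fold change of 0.61, and 17 were positive, beside 2416 of all 4967 genes tested. Traf1, an adaptor of TNF receptors, had a log2 fold change of 1.07 (adjusted p = 0.0165). Rel, an NF-kB subunit needed for regulatory T cell development, had one of 1.01 (adjusted p = 0.0182).

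Genes of tissue and tumour effector regulatory T cells were called in 2 of 16 tested. Klrg1, an inhibitory lectin receptor of terminally matured T cells, had 24 UMIs in beta-elemene members against 1 in conventional cells and 37 in vehicle members against 0, a summed CPM ratio of 64.0 (11.1 to 2570; adjusted p = 0.000724). Il1rl1, the interleukin 33 receptor ST2, was at 341 CPM in beta-elemene members against 102 CPM, and at 416 CPM in vehicle members against 209 CPM (log2 fold change 1.24, SE 0.245, adjusted p = 0.0127). Of 11 suppressive mediators Gzmb, the cytotoxic protease granzyme B, was the only one called. It was at 344 CPM in beta-elemene members against 94.1 CPM in conventional cells and at 490 CPM in vehicle members against 72.7 CPM (log2 fold change 2.20, SE 0.275, adjusted p = 0.00049). Its UMIs lay in 21 of 73 beta-elemene and 27 of 76 vehicle members, and in vehicle 57 of 167 lay in 1 barcode. Il10 had 10 UMIs in beta-elemene members and 8 in vehicle members, too few to test, and Ccr8, a chemokine receptor of tumour regulatory T cells, had 4 and 8.

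Members held less of the genes of resting and helper T cells. Of 14 resting and recirculation genes tested, Tcf7, S1pr1 and Ly6c1 fell, with a median log2 fold change of -1.08. Tcf7, the factor TCF-1 of naive and stem-like T cells, was at 8.81 CPM in beta-elemene members against 94.1 CPM in conventional cells and at 23.5 CPM in vehicle members against 64.0 CPM (log2 fold change -2.35, adjusted p = 0.022). Of 12 helper genes tested, Tnfsf8, the ligand of CD30, fell, and it was at 229 CPM in beta-elemene members against 710 CPM and at 82.1 CPM in vehicle members against 390 CPM (log2 fold change -1.99, SE 0.239, adjusted p = 0.000365). No gene passed the test among 13 interleukin 2 signalling, 18 T cell receptor signalling, 11 type I interferon, 21 class I presentation, 17 glycolysis, 13 mitochondrial respiratory and 25 nuclear respiratory genes. Across these 118 genes 10 had an unadjusted edgeR p below 0.05, and DESeq2 called 0. On simulated data the edgeR fit called 6.25% of genes changed 2-fold, so these lists could hold changes of that size that were missed. Over all genes DESeq2 called 24 and edgeR without its filter on low counts called 0, with 671 genes at an unadjusted p below 0.05. Of the list genes named above, Itgav (DESeq2 adjusted p = 9.61e-09), Itgb8 (0.0232), Gzmb (0.00162) and Tnfsf8 (0.000315) also passed with DESeq2, while Itgae (0.427), Tnfrsf9 (0.131) and Klrg1 (0.101) did not. DESeq2 called 1 of the identity list, Itgb8, and none of the tumour effector, resting, or TNF receptor and NF-kB lists.

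The 15 highest named genes also included Il23r, Trdc and Zbtb16, known from innate-like T cells. Il23r, the interleukin 23 receptor of cells that make interleukin 17, had 27 UMIs in beta-elemene members against 2 in conventional cells and 75 in vehicle members against 0, a CPM ratio of 53.5 (14.4 to 448; adjusted p = 0.000357). Trdc was at 109 CPM in beta-elemene members against 2.69 CPM and at 35.2 CPM in vehicle members against 8.73 CPM (log2 fold change 3.45, adjusted p = 0.012). Zbtb16, the factor PLZF of innate-like T cells, was at 35.2 CPM in beta-elemene members against 8.07 CPM and at 106 CPM in vehicle members against 11.6 CPM (2.66, adjusted p = 0.0149). The chemokine gene Ccl4, also among the 15, was at 112 CPM in beta-elemene members against 13.4 CPM and at 176 CPM in vehicle members against 23.3 CPM (2.86, adjusted p = 0.00058). Frmd5, Ednrb, Nckap5, Pcyt1a, Cep85l, Lsamp, Zbtb46 and Myo1e completed the 15 highest, with log2 fold changes of 2.43 to 3.91.

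**Figure D2:**
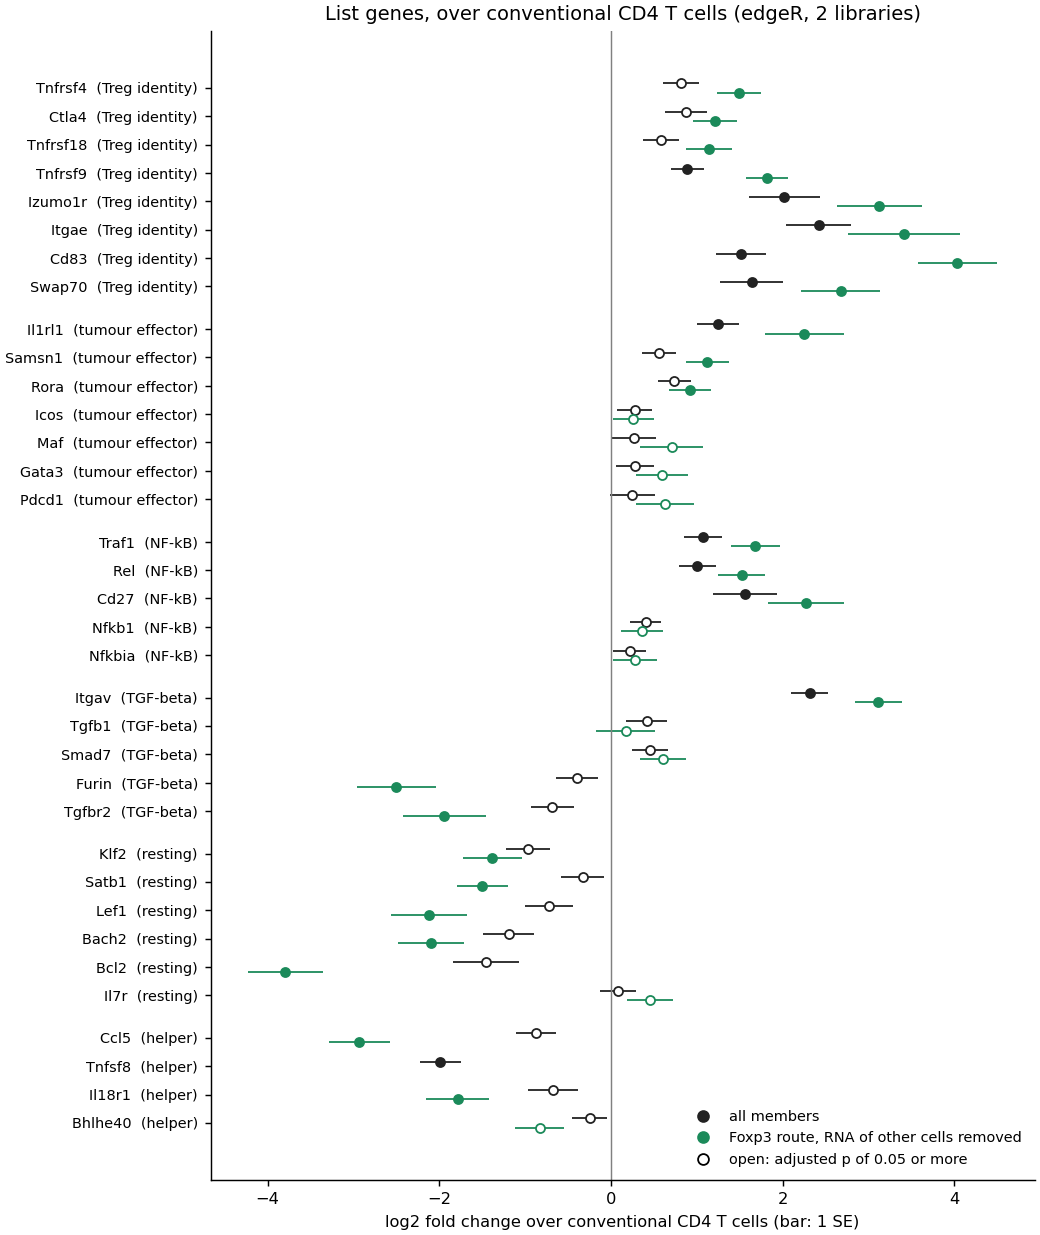
Log2 fold change over conventional CD4 T cells (horizontal axis, bar 1 SE) of selected list genes with more than 3 UMIs on either side, for all members in black and for the Foxp3 route without barcodes holding RNA of other cells in green; filled points passed the adjusted threshold of 0.05. Green points lie farther from 0 than black ones for most identity, resting and helper genes, as for Cd83 at 4.04 and Bcl2 at -3.79.

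The comparison was repeated with the Foxp3 route alone and with barcodes holding RNA of other cells removed from either side, which left 17 beta-elemene and 29 vehicle members against 65 and 47 conventional cells. This choice, and the genes named from it, were made after the values were seen. Of 2336 genes tested 70 were higher, or 3%, and 60 lower, or 2.57%. After the removal only 1 fibroblast, 2 epithelial and 1 neutrophil marker were tested, and none was called. That cannot serve as a check, since the same marker lists defined the removal. Of 16 identity genes tested, 9 rose and none fell, with a median log2 fold change of 1.40. Tnfrsf4 was at 1242 CPM in the beta-elemene Foxp3 route against 363 CPM in conventional cells, and at 1075 CPM in the vehicle Foxp3 route against 388 CPM (log2 fold change 1.49, SE 0.254, adjusted p = 0.00393). Ctla4 (1.22, adjusted p = 0.014) and Tnfrsf18 (1.15, adjusted p = 0.0248) rose as well. Over all members with the same barcodes removed, Tnfrsf4, Ctla4 and Tnfrsf18 also rose, as did 11 of 17 identity genes in all, and Areg too. Itgav had a log2 fold change of 3.11 (SE 0.274, adjusted p = 6e-05), with 1263 CPM in beta-elemene against 130 CPM and 1587 CPM in vehicle against 171 CPM. Cd83, an activation marker of regulatory T cells and dendritic cells, was at 337 CPM in beta-elemene against 14.1 CPM and at 331 CPM in vehicle against 22.8 CPM (4.04, SE 0.462, adjusted p = 0.000263). Areg, the epidermal growth factor receptor ligand that tissue regulatory T cells release in repair, was at 632 CPM in beta-elemene against 91.5 CPM and at 392 CPM in vehicle against 45.7 CPM (2.76, SE 0.336, adjusted p = 0.00036). Of 15 TNF receptor and NF-kB genes, 6 rose and none fell. Gzmb did not pass here (1.24, adjusted p = 0.0643).

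Genes of resting and helper T cells were lower in the same comparison, and of those named here Tnfsf8, Bcl2, Ccl5, Tcf7, Bach2, Lef1 and Klf2 also fell over all members with the same barcodes removed. Tnfsf8 had 1 UMI in the Foxp3 route over both libraries against 340 in conventional cells, a CPM ratio of 0.00918 (0.000232 to 0.0515; adjusted p = 7.75e-05). Bcl2, which keeps resting lymphocytes alive, was at 126 CPM in beta-elemene against 1000 CPM and at 20.1 CPM in vehicle against 571 CPM (log2 fold change -3.79, SE 0.435, adjusted p = 0.000263). Ccl5, a chemokine of effector T cells, was at 84.2 CPM in beta-elemene against 658 CPM and at 110 CPM in vehicle against 754 CPM (-2.93, SE 0.355, adjusted p = 0.000357). Tcf7 had 0 UMIs in the Foxp3 route against 46 in conventional cells, which at a floor of 3 UMIs over the group is at least 4.91-fold lower. Of 11 resting genes tested 6 fell (Bcl2, Bach2, Satb1, Lef1, Tcf7 and Klf2), and of 8 helper genes 6 fell (Tnfsf8, Ccl5, Tnfsf11, Nkg7, Il18r1 and Cxcr6) and none rose. In the TGF-beta list Furin and Tgfbr2, a protease that processes TGF-beta and a receptor chain, fell, while Itgav, Itgb8 and Itgae rose.

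The routes were also compared with each other by the same test, added after the values were seen. Of 2984 genes 39 were higher in the Foxp3 route, or 1.31%, and 54 were lower, or 1.81%. The higher genes held the macrophage markers Lyz2 and Apoe and 3 collagens. The removal of barcodes holding RNA of other cells used these same marker lists. After it only 2 macrophage markers and 0 fibroblast markers were tested, and none was called, which cannot serve as a check of the removal. In that fit 13 of 1923 genes were higher (0.676%) and 17 lower (0.884%). Among the 13 were Izumo1r, at 421 CPM in the beta-elemene Foxp3 route against 64.7 CPM in the Ikzf2/Il2ra route and 211 CPM in vehicle against 33.5 CPM (log2 fold change 2.62, SE 0.485, adjusted p = 2.44e-05). Tnfrsf4 (1.09, adjusted p = 0.00247), Tnfrsf9 (0.98, adjusted p = 0.000801) and Klrg1 (2.27, adjusted p = 0.00171) were higher in the Foxp3 route too. Ccl4 had the largest difference, at 274 CPM in beta-elemene against 6.47 CPM and 522 CPM in vehicle against 33.5 CPM (4.25, SE 0.553, adjusted p = 2.19e-11). Lower in the Foxp3 route were Bcl2 (-2.69, adjusted p = 2.76e-05), Ccl5 (-2.42, adjusted p = 5.3e-06), Satb1 (-1.49, adjusted p = 0.00141) and Tnfsf8, with 1 and 0 UMIs against 68 and 27. Neither chain of the integrin passed the test between the routes. Itgav was at 1263 CPM against 881 CPM in beta-elemene and 1587 against 964 CPM in vehicle (0.59, adjusted p = 0.221). Itgb8 was at 105 against 175 CPM in beta-elemene and 301 against 92.2 CPM in vehicle (0.66, adjusted p = 0.746).

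**Figure D3:**
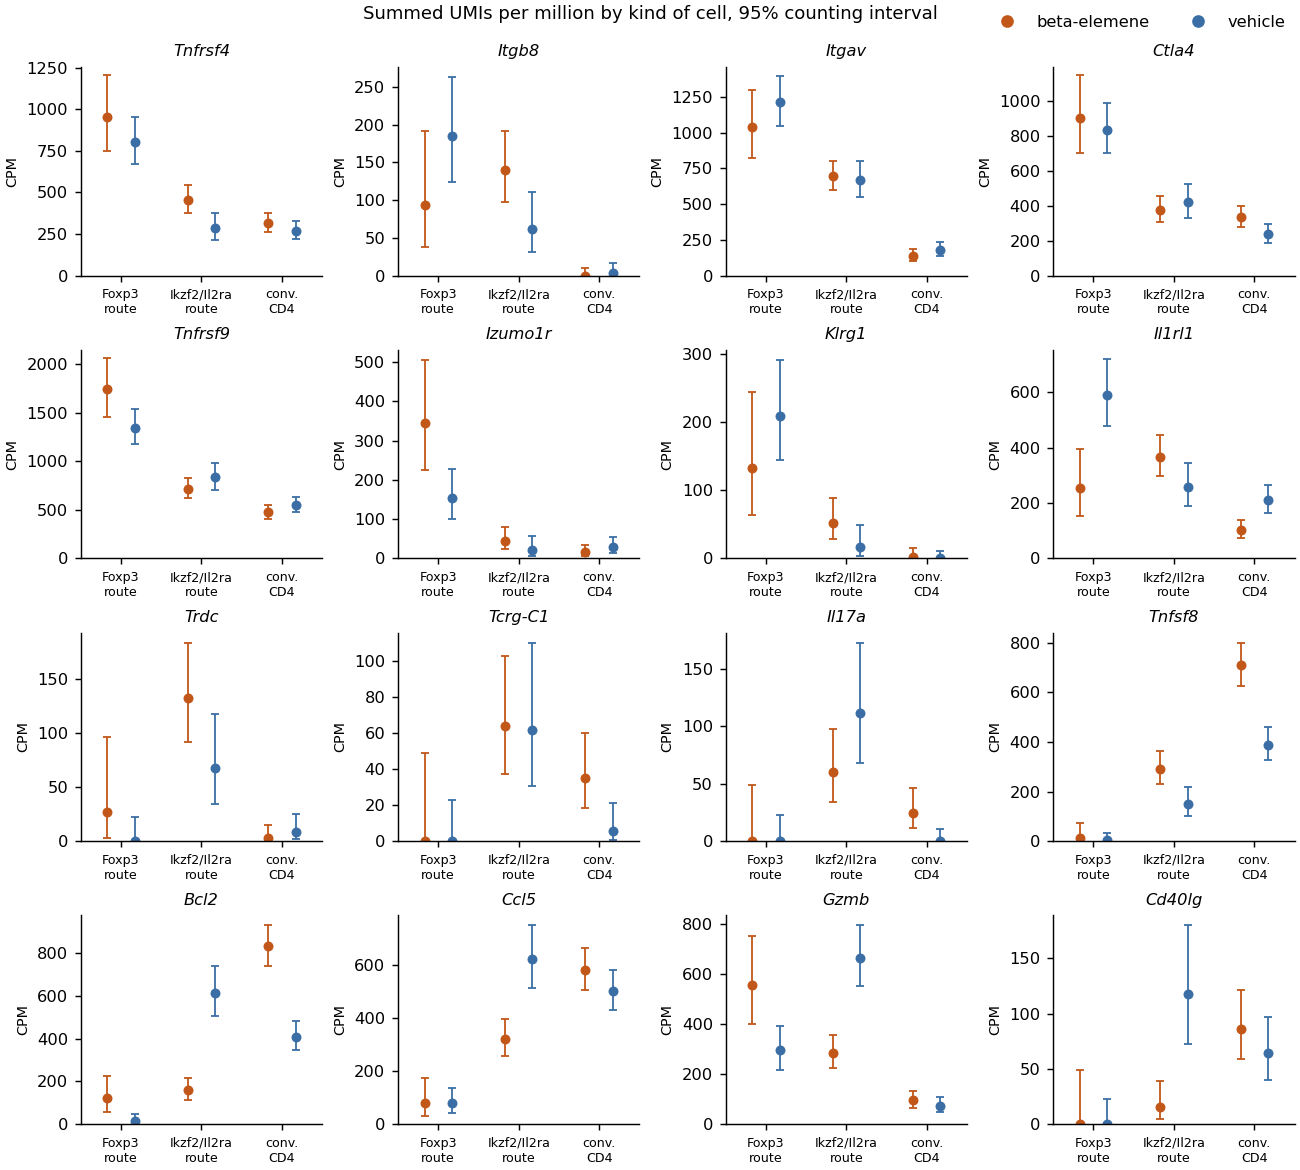
CPM (vertical axis, from 0) of 16 genes summed over the Foxp3 route, the Ikzf2/Il2ra route and conventional CD4 T cells, beta-elemene left of vehicle, with 95% counting intervals. Itgav and Itgb8 are above conventional cells in both routes, Trdc, Tcrg-C1 and Il17a appear in the Ikzf2/Il2ra route, and Tnfsf8 and Bcl2 are lowest in the Foxp3 route.

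Between the libraries, genes were compared in the members of beta-elemene over those of vehicle. A gene was called when its CPM ratio of beta-elemene over vehicle was at least 1.5-fold either way and its counting interval left out 1. Of 3529 genes with 30 or more UMIs, 218 were higher, or 6.18%, and 205 were lower, or 5.81%, with a median log2 ratio of 0.0024. No test is possible with 1 library per group. Of 17 identity genes measured 1 was higher and none lower, a count near the shares over all genes, with a median log2 ratio of 0.10. Tnfrsf4 was at 567 CPM in beta-elemene and 534 CPM in vehicle, a ratio of 1.06 (0.863 to 1.31). Itgb8 was at 129 and 120 CPM, a ratio of 1.07 (0.686 to 1.69). Ctla4 was at 493 and 619 CPM, a ratio of 0.798 (0.647 to 0.981). The gene called was Penk, which encodes enkephalin precursors and is expressed by some regulatory T cells, with 133 UMIs in 15 beta-elemene barcodes against 47 in 13 vehicle barcodes, a ratio of 2.83 (2.02 to 4.04) that was 1.98 without the highest barcode of each library. None of 18 TNF receptor and NF-kB genes was called.

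Maf and several interferon gamma targets were lower in the members of beta-elemene than in those of vehicle. Maf, a factor of interleukin 10 production and of effector regulatory T cells, had 101 UMIs in 43 beta-elemene barcodes (297 CPM) against 206 in 51 vehicle barcodes (604 CPM), a ratio of 0.491 (0.383 to 0.626). It was 0.462 (0.287 to 0.716) in the Foxp3 route, 0.575 (0.417 to 0.789) in the Ikzf2/Il2ra route and 0.449 (0.329 to 0.606) with barcodes holding RNA of other cells removed. Of 18 interferon gamma genes measured 6 were lower and none higher, with a median log2 ratio of -0.27; the 6 were Cxcl10, Iigp1, Gbp5, Gbp7, Nlrc5 and Cd274. Iigp1, an interferon-induced GTPase, had 14 UMIs in 7 beta-elemene barcodes against 65 in 14 vehicle barcodes, a ratio of 0.216 (0.112 to 0.388), and 0.317 (0.152 to 0.615) without barcodes holding RNA of other cells. Cxcl10, the chemokine that draws Cxcr3-bearing T cells, had 4 UMIs in 3 beta-elemene barcodes against 65 in 15 vehicle barcodes, a ratio of 0.0616 (0.0163 to 0.166). It was 0.140 (0.0359 to 0.396) without barcodes holding RNA of other cells. Gbp5, Gbp7 and Cd274 had intervals that included 1 once those barcodes were removed, at 0.694, 0.664 and 0.762, while Nlrc5, the class I transactivator, was at 0.442 (0.198 to 0.920). None of 9 type I interferon genes was called.

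Several resting-state genes, and Icos among the effector genes, were lower in beta-elemene. Of 10 resting genes measured, Bcl2, Satb1, Lef1 and Bach2 were lower in beta-elemene and Ccr7 was higher, with a median log2 ratio of -0.30. Bcl2 was at 150 CPM in beta-elemene and 328 CPM in vehicle, a ratio of 0.456 (0.321 to 0.641). In the Ikzf2/Il2ra route the ratio was 0.257 (0.176 to 0.370), while the Foxp3 route had 9 UMIs in beta-elemene (120 CPM) against 2 in vehicle (12.3 CPM). Satb1, a chromatin organiser that Foxp3 represses, had a ratio of 0.453 (0.356 to 0.573) over all members, 0.306 (0.235 to 0.394) in the Ikzf2/Il2ra route and 0.954 (0.483 to 1.80) in the Foxp3 route. Lef1 had a ratio of 0.396 (0.243 to 0.633) in the Ikzf2/Il2ra route, and Bach2 one of 0.458 (0.287 to 0.722). The Foxp3 route summed to 75237 UMIs in beta-elemene and 162616 in vehicle, so its counts are given with CPM. There Lef1 had 2 UMIs in beta-elemene (26.6 CPM) against 11 in vehicle (67.6 CPM). Bach2 had 8 (106 CPM) against 23 (141 CPM), and counts this low do not settle a change in that route. Icos, the inducible costimulator, was at 802 CPM in beta-elemene and 1234 CPM in vehicle, a ratio of 0.650 (0.556 to 0.758). Its ratio was 0.946 (0.714 to 1.24) in the Foxp3 route and 0.538 (0.444 to 0.652) in the Ikzf2/Il2ra route. Il1rl1 had 19 UMIs in the beta-elemene Foxp3 route against 96 in vehicle, a ratio of 0.428 (0.247 to 0.705), and 97 against 46 in the Ikzf2/Il2ra route, a ratio of 1.42 (0.989 to 2.06). The difference between the routes' ratios was not tested. Of 13 tumour effector genes 2 were higher, Il1r2 at 2.77 (1.56 to 5.14) and Pdcd1 at 1.55 (1.08 to 2.23), and 2 lower, Maf and Icos. Of 9 helper genes Tnfsf8 at 2.79 (1.79 to 4.46) and Tnfsf11 at 3.16 (1.66 to 6.43) were higher, nearly all of whose UMIs lay in the Ikzf2/Il2ra route, and Il18r1 at 0.480 (0.364 to 0.629) was lower. Il1r2, Pdcd1 and Ccr7 had intervals that included 1 without barcodes holding RNA of other cells, at 1.90, 1.25 and 1.36.

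**Figure D4:**
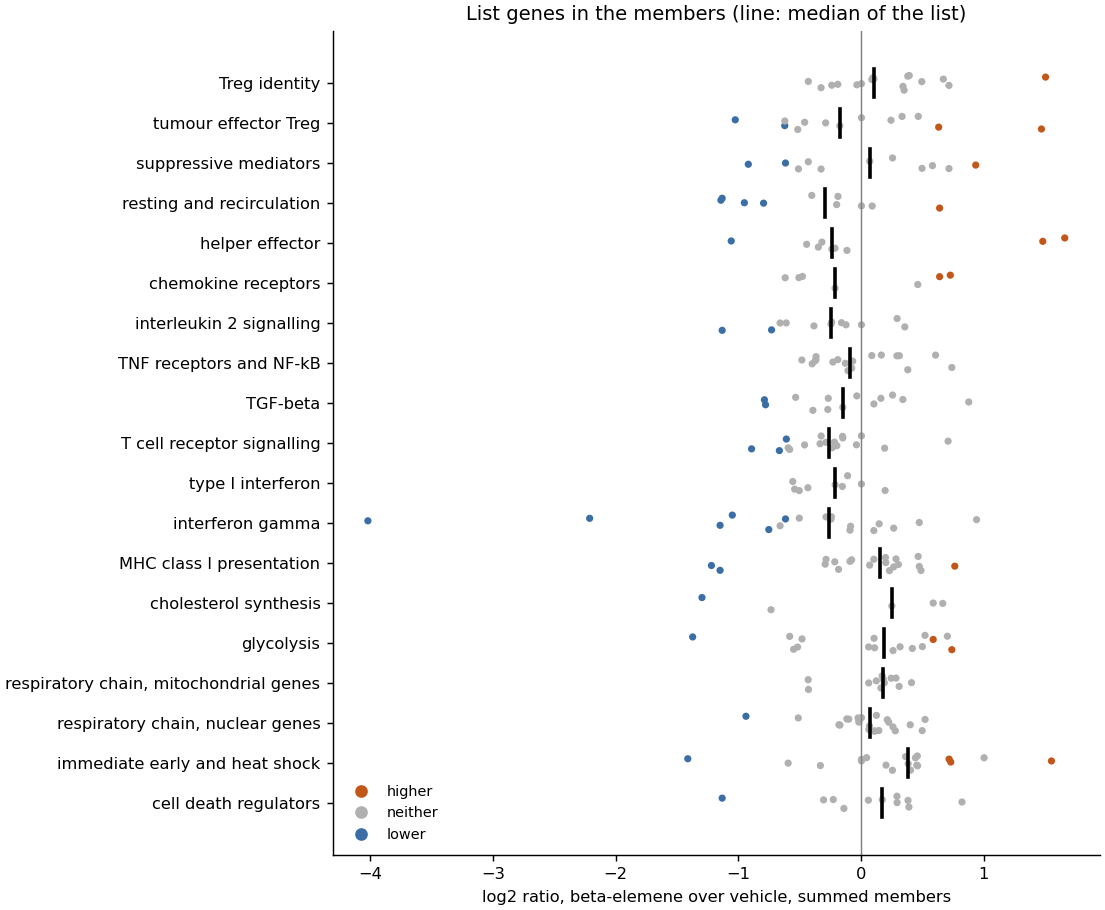
Log2 ratio of beta-elemene over vehicle in the summed members (horizontal axis) for each measured gene of 19 lists, 1 point per gene, orange where called higher, blue where called lower and grey where neither, with the list's median as a line. The interferon gamma list holds 6 blue and no orange points, and no gene of the TNF receptor and NF-kB list is coloured.

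None of 12 mitochondrial respiratory genes was called, and 1 of 23 nuclear ones, Atp5k, was lower. Of 16 glycolysis genes Pgam1 at 1.67 (1.14 to 2.47) and Eno1 at 1.5 (1.14 to 1.98) were higher and Hk2, a hexokinase, at 0.386 (0.257 to 0.570) was lower; Hk2 was 0.193 in the Ikzf2/Il2ra route and 2.88 in the Foxp3 route, where it had 12 and 9 UMIs. Of 13 TGF-beta genes Smad3 at 0.579 (0.376 to 0.881) and Smad4 at 0.583 (0.365 to 0.917), which carry the receptor's signal to the nucleus, were lower. Of 12 interleukin 2 signalling genes Stat5b at 0.603 (0.433 to 0.834) and Bcl2 were lower. Of 18 T cell receptor signalling genes 3 were lower and none higher. Of 20 class I presentation genes H2-Q7 was higher and Erap1 and Nlrc5 lower. Of 19 immediate early and heat shock genes Fos, Ier2 and Atf3 were higher and Hspa1b lower, and 16 of the 19 ratios were above 1, with a median log2 ratio of 0.38, or 0.22 over the 12 genes measured without barcodes holding RNA of other cells. Over all 3529 genes 1874 ratios were above 1, with a median log2 ratio of 0.0024, and 6.18% were called higher and 5.81% lower. Fos was 2.93 over all members and 0.759 without barcodes holding RNA of other cells.

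Of the 12 highest named ratios, the neutrophil genes came first. S100a9 had 605 UMIs in beta-elemene members, 397 of them in 1 barcode, against 39 in vehicle members, a ratio of 15.5 (11.2 to 22.1), and S100a8 had 370 against 38, a ratio of 9.75 (6.97 to 14.0). Without barcodes holding RNA of other cells they had 15 against 8 UMIs and 9 against 7 UMIs, ratios of 2.03 (0.809 to 5.53) and 1.39 (0.462 to 4.40). Both genes are on the neutrophil list that defined those barcodes, so their fall follows from the removal. Dusp14, a phosphatase that dampens T cell receptor signalling, had 39 UMIs in 15 beta-elemene barcodes against 7 in 6 vehicle barcodes, a ratio of 5.58 (2.47 to 14.8), and 6.68 (2.80 to 19.4) without those barcodes. Tnfsf11, the gene of RANKL, was 4.80 (2.07 to 12.9) without them. Mapk14, the p38 alpha kinase, was 3.13 (1.37 to 8.03) over all members and 4.34 (1.40 to 17.8) without them. Smpdl3a and Impa2 were 3.19 and 3.11 over all members and 3.25 each without them, while Mtss1, Ttc3 and Hcfc1r1 had intervals that included 1. Of the 12 lowest, Prkce, the protein kinase C epsilon gene, had 11 UMIs in 11 beta-elemene barcodes against 51 in 29 vehicle barcodes, a ratio of 0.216 (0.102 to 0.420) and 0.224 without those barcodes. Lmo4 was 0.209 over all members and 0.434 (0.202 to 0.872) without them, and Ednrb 0.355 and 0.108. How much of each ratio came from RNA of other cells was not tested beyond this removal.

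**Figure D5:**
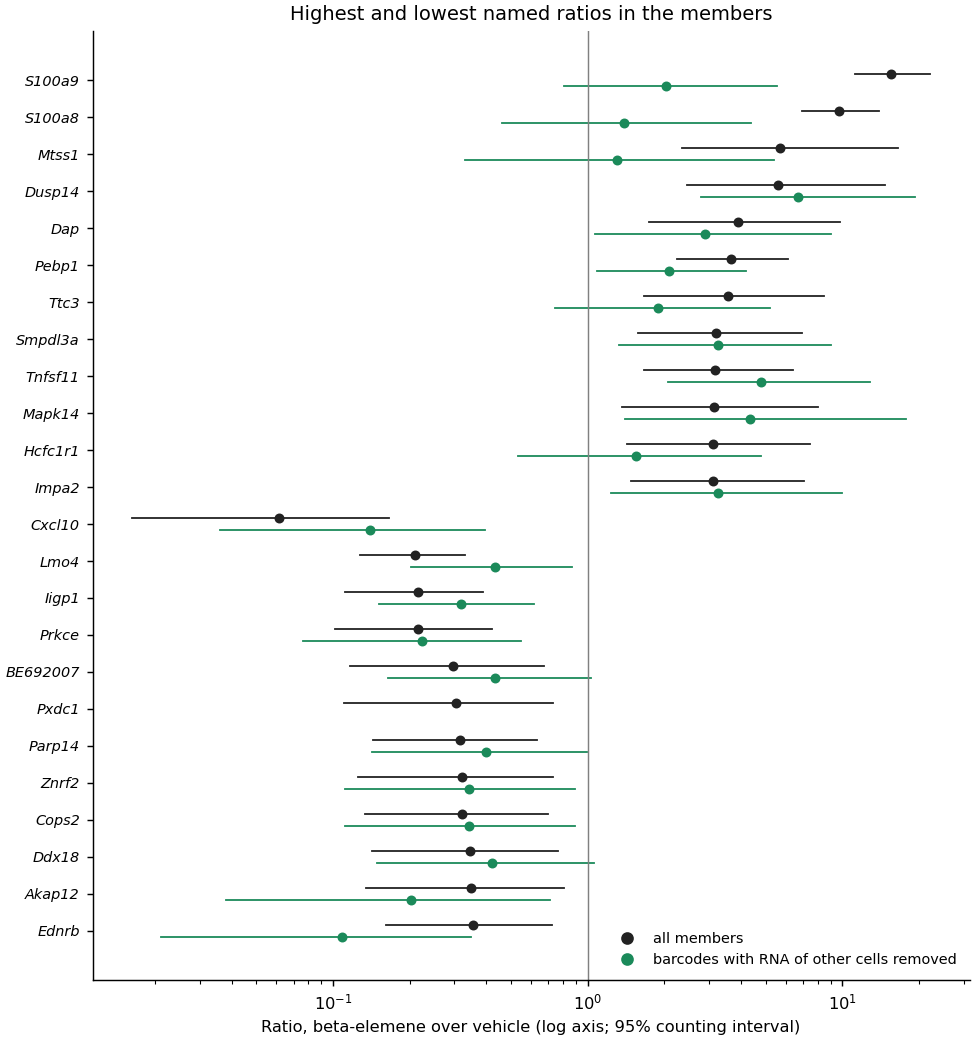
Ratio of beta-elemene over vehicle (horizontal log axis, 1 at no difference) with its 95% counting interval for the 12 highest and 12 lowest named genes, over all members in black and without barcodes holding RNA of other cells in green. S100a9 and S100a8, which are on the neutrophil list used for the removal, move from 15.5 and 9.75 to 2.03 and 1.39. Their fall follows from that choice. Dusp14, Tnfsf11 and Mapk14, which are on none of the lists used for it, stay above 3.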

How the data were processed

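Tumours were dissociated and profiled by droplet sequencing with 3' chemistry, per the labels' protocols. The deposited values are raw UMI counts per gene and barcode, written by Cell Ranger 7.1.0 per the file headers, with Cell Ranger, STAR and mm10 named in the submitters' processing notes. Annotation release, cell calling and treatment of introns are not given in the sources used here. Counting introns or not can change levels of long genes such as Ikzf2.

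Barcodes with at least 200 genes and at most 20% mitochondrial UMIs were kept, 10861 of 11539 in beta-elemene and 10803 of 11324 in vehicle. Doublets were called with Scrublet in scanpy 1.11.5 (2.90% in beta-elemene and 3.13% in vehicle of kept barcodes) and were removed only in an alternative. Conventional CD4 T cells met every part of the rule but the last and held Cd4. Shares have 95% Clopper-Pearson intervals and CPM ratios exact conditional Poisson intervals, both of counting error only. Sums per library and kind of cell (340570 UMIs in beta-elemene and 341145 in vehicle members, 371876 in beta-elemene and 343797 in vehicle conventional cells) were fitted with edgeR 4.0.16 (R 4.3.3): TMM, filterByExpr, library as a term, quasi-likelihood test, Benjamini-Hochberg 0.05, with DESeq2 1.42.0 as an alternative. The steps were tested on simulated data. There the edgeR fit called 6.25% of genes changed 2-fold, 65.7% of those changed 4-fold and 2 unchanged genes, with 4958 genes tested. Genes the gates used were never counted as results.

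Named genes were, between the libraries, the 12 highest and 12 lowest called ratios with a UMI in 10% of members and, in the library where they were higher, a CPM of at least 0.5 times that of all other kept barcodes; and, against conventional cells, the 15 highest and 15 lowest called changes of the same sign in both libraries, with the most abundant and most extreme genes of each list. The members and lists were chosen with earlier results of these data known. Results for some list genes are not reported here.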

Additional observations from a re-analysis of the deposited data

How the results depend on the processing

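The share of members depended on how Foxp3 was used and on depth. The ratio of beta-elemene over vehicle, 0.955 of kept barcodes and 0.997 of T cell barcodes without Cd8, was 0.576 and 0.601 with Foxp3 at 1 UMI or more, and 0.608 and 0.634 with Foxp3 at 2 or more. With thinning to 1000 UMIs and the rule applied again to the thinned counts, the ratio was 0.621 and 0.574. Stricter quality limits, every deposited barcode, doublet removal and removal of barcodes with RNA of other cells kept it between 0.912 and 0.986. The 423 genes called between the libraries became 199 with Foxp3 alone (64 of them among the 423), 210 without barcodes holding RNA of other cells (116 among the 423), 84 with both (an alternative added after seeing the data), 665 with a minimum of 10 UMIs and 135 with one of 100. Other settings gave 291 to 427. Of the named ratios under these alternatives, 220 values stayed within their counting interval, 36 moved past it and 5 changed direction: Ttc3 at 0.540 and Ednrb at 1.08 with Foxp3 alone, and Ttc3 at 0.699, Lmo4 at 1.05 and Parp14 at 2.10 with RNA of other cells removed as well.

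The 140 genes called against conventional cells became 24 with DESeq2, 91 without the library term, 88 without doublets, 81 with the Ikzf2/Il2ra route alone and 380 without the deepest member of each library, both of these added after seeing the data. With no filter on low counts edgeR called 0, with 671 at an unadjusted p below 0.05. Other settings gave 103 to 196. Of the values of the named changes, 195 kept their call and 65 lost it, none changing direction. Named genes that an alternative did not test are not in these counts. Of the 30 named genes, 11 were tested without barcodes holding RNA of other cells, and 7 with Foxp3 alone and that removal. At 2000 to 10000 UMIs 15 were tested. Each library alone gives a change but no test. Members and conventional cells were paired within a library by the library term. Between beta-elemene and vehicle no paired analysis was possible because each group is 1 library.

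With 22 and 38 barcodes in the Foxp3 route, differences between the libraries in genes of few UMIs were not detectable at this depth.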
